A study of Danio rerio with 12 samples.

Results

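Adenylate kinases hand high-energy phosphate between nucleotides, and creatine kinases hand it between ATP and creatine. Both families were followed through the gonads and the remaining body of adult zebrafish. Their probe sets were chosen by name from the annotation of the Affymetrix Zebrafish Genome Array, as those whose only gene symbol is ak with a number and at most a paralog letter, or begins with ckm or ckb. Of the 15502 probe sets analysed, 10795 carry 1 gene symbol, and 10 met the rule. They represent 9 genes, the adenylate kinases ak1, ak3 and ak4 and the creatine kinases ckma, ckmb, ckba (by 2 probe sets), ckbb, ckmt1 and ckmt2a. One member, ak1, had been singled out in earlier work on these arrays by its testis and ovary signals, so its differences between a gonad and any other sample are described without a test.

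The samples were testis, ovary, male body without testes and female body without ovaries, with 3 arrays in each group and 1 fish behind each gonad and each body. All fish were full siblings of the AB wild-type strain, 4 to 12 months old, which had spawned and were then kept apart by sex for 5 days before dissection. A gonad sample contains germ cells and gonadal somatic cells together, and a body sample pools muscle, heart, brain, eye, skin, blood and viscera. The comparisons asked which of these enzymes differ between the sexes in the gonads (testis against ovary) and in the body (male body against female body), and which are raised in a gonad relative to the body of the same sex. P-values measure the spread between these 3 fish per group. The main tests of gonad against body did not pair samples, although same-numbered gonad and body samples deviated together, as described under processing.

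Adenylate kinases convert ATP and AMP into ADP and back, which lets a cell draw on ADP and also sets the AMP level that energy sensors read. The isoenzyme of ak1 is the cytosolic form known from mammalian muscle and red blood cells, whereas those of ak3 and ak4 work in the mitochondrial matrix, ak3 with GTP as its preferred partner nucleotide. Creatine kinases store ATP's phosphate on creatine and return it on demand: the M type (ckma, ckmb) is the cytosolic form of striated muscle, the B type (ckba, ckbb) that of brain and many other tissues, and the mitochondrial forms, ubiquitous (ckmt1) and sarcomeric (ckmt2a), charge creatine at the site of ATP synthesis. In sperm of several animals, a phosphocreatine shuttle and adenylate kinases carry energy along the flagellum.

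The values are GCOS signals, a linear intensity that the authors scaled to a common trimmed mean on every array. Signals below 32 were treated as 32, the floor, before taking log2, so a group lying wholly at the floor gives only a bound on the fold (written "at least"), and one with 1 or 2 such arrays gives a fold that depends on the floor. The share of probe sets at or below the floor was 14.1% to 17.9% on testis arrays, 33.0% to 35.7% on ovary arrays, 10.4% to 11.8% on male and 12.3% to 18.4% on female body arrays. All 10 probe sets were above the floor on at least 1 array of every comparison. Marker lists followed the labels of testis, ovary and male body. Against ovary, testis was higher for 21 of 22 axoneme genes (42.5% of all probe sets tested) and lower for all 14 oocyte genes (24.4%). Against male body, testis was lower for 20 of 21 muscle genes (29.9% of all probe sets tested). Several axoneme genes, among them tekt1 and dnai1.1, did not rise above the floor in any ovary, so testis could only come out higher. Likewise, the oocyte gene kpna7 and the muscle gene tnni2a.4 stayed at the floor in every testis and could only come out lower there. The female body arrays carried oocyte transcripts, with a summed oocyte signal of 83.2%, 58.6% and 45.6% of the ovary mean on arrays 1, 2 and 3, against 0.262% to 0.541% on the male body arrays. The same 3 female arrays held 34.4%, 57.8% and 81.2% of the male body mean of summed muscle markers. Results that involve female body are given with these values in view, and fewer cells of a type cannot be told apart from less RNA per cell in such bulk tissue.

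**Figure D1:**
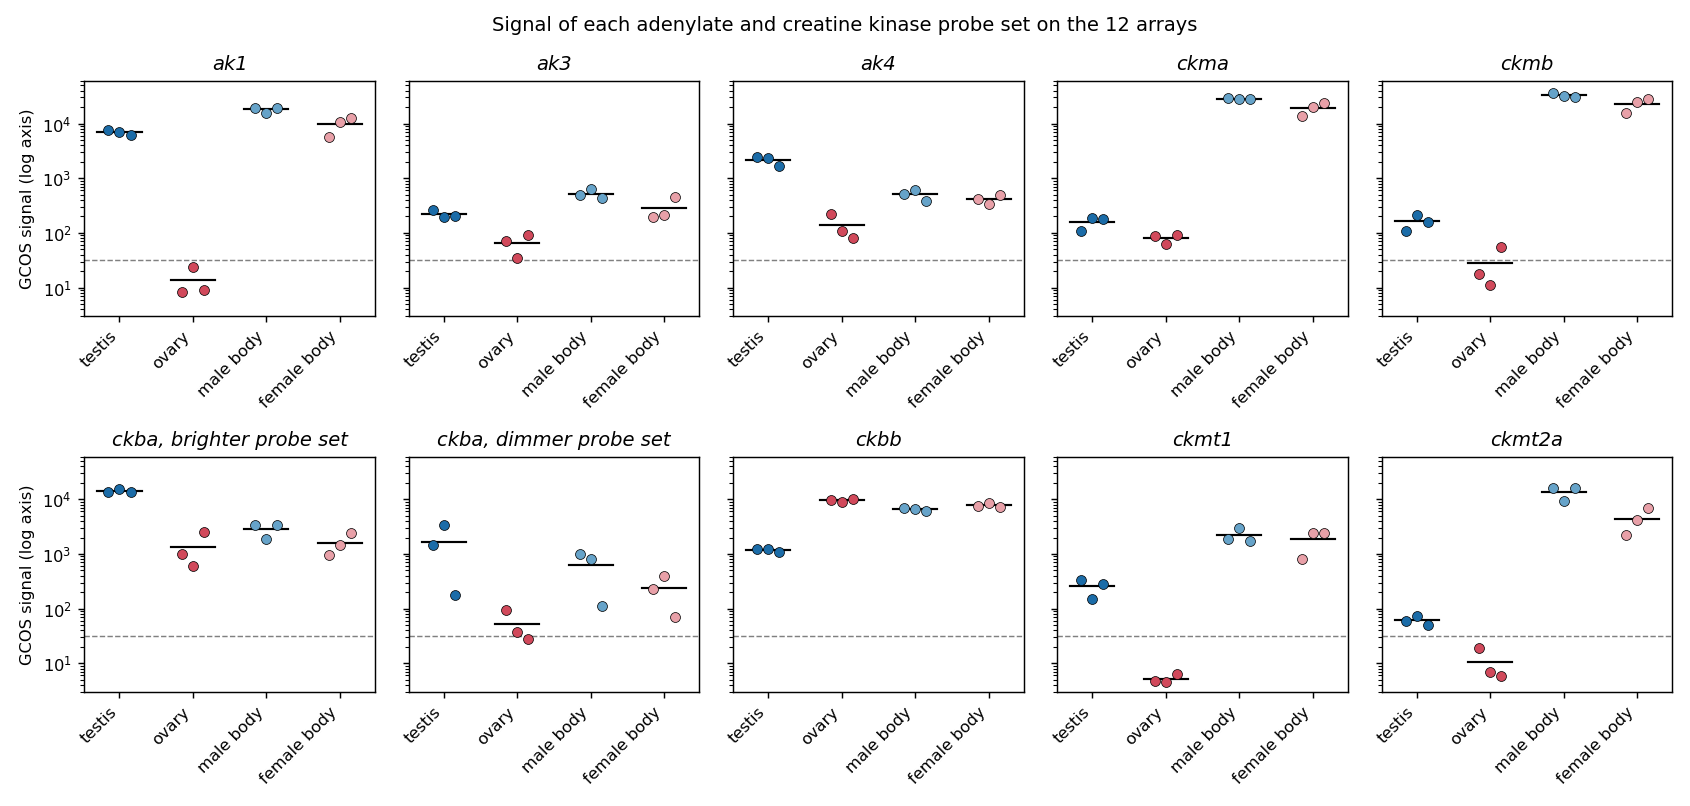
GCOS signal (log axis) of the 10 probe sets on the 12 arrays, with 1 point per array in the order 1, 2, 3 within each group, a bar at the group mean and a dashed line at the floor of 32. The ckma, ckmb and ckmt2a panels are high only in the bodies, the brighter ckba and ak4 panels are highest in testis, ckbb is lowest in testis, and ak1 is high in testis and bodies with the 3 ovary points below the floor.

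The cytosolic adenylate kinase ak1 gave signals of 7540.3, 7039 and 6250.4 in the 3 testes, against 8.2, 23.6 and 9.1 in the 3 ovaries. Its signals were 19274, 15783 and 19281 in male bodies and 5678, 10479 and 12735 in female bodies. Every ovary array lay below the floor and every testis array was at 6250.4 or higher, so the gonads were far apart. On the floored scale the testis signal was at least 216-fold above ovary (log2 7.76), and the ovary signal at least 285-fold below female body (log2 -8.15). Relative to male body, testis was 2.61-fold lower (log2 -1.38), with the 3 testes between 34.5% and 41.6% of the male body mean. Each of these differences holds the testis or ovary signals by which ak1 was picked, and no test is attached to them.

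In male against female body, where ak1 could be tested, the 3 male signals lay above the 3 female signals without overlap. The log2 difference of 0.98 (SE 0.32) did not pass the threshold with limma (adjusted p = 0.053), and it did so when female body array 3 was left out (log2 1.23, adjusted p = 0.024). Male body array 2 was the lowest of the males, with arrays 1 and 3 close together, and female body array 1 was the lowest of the females.

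The level of ak1 in testis stood apart from that of the muscle creatine kinases when each was expressed as a percent of its own male body mean. For ckma the 3 testes reached 0.386% to 0.662%, and for the summed muscle markers 2.17% to 2.39%, against the 34.5% to 41.6% of ak1. The level was not particular to ak1, since the 3 testes reached 38.1% to 50.5% for ak3. Red cell genes, a list put together after these values were seen (globins, alas2 of haem synthesis and membrane skeleton genes, 7 of 9 on the array), summed to 21.1% to 28.1% of the male body mean in testis and 0.808% to 1.73% in ovary. The male bodies themselves varied between 56.8% and 124.8%, and the female bodies lay between 25.1% and 58.5%. The sums themselves ran between 8867 and 11770 (testis), 339 and 726 (ovary), 23820 and 52330 (male body), and 10520 and 24540 (female body). A single globin, hbaa1, had means of 8554 (testis), 246 (ovary), 27120 (male body) and 15480 (female body) beside these sums. The ak1 means followed the same order of groups as the red cell sums (male body, female body, testis, ovary), with testis and female body overlapping in both. Because the red cell list was made with the values known, the shared order is a description and carries no test. The summed brain and nerve markers and the summed photoreceptor markers had that order and overlap too. By the median gene of either list, testis and female body did not overlap. In testis the brain and nerve sum was 26.1% to 42.4% of the male body mean. The median gene of that list was at 14.99% to 15.51% in testis and 30.9% to 65.1% in female body. For photoreceptors the median gene was at 3.8% to 5.0% in testis and 30.2% to 68.2% in female body. The photoreceptor gene opn1sw2 alone had a mean of 2987 in testis, where the photoreceptor sum had a mean of 3609. The part of blood cells in the ak1 signal was not tested.

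**Figure D2:**
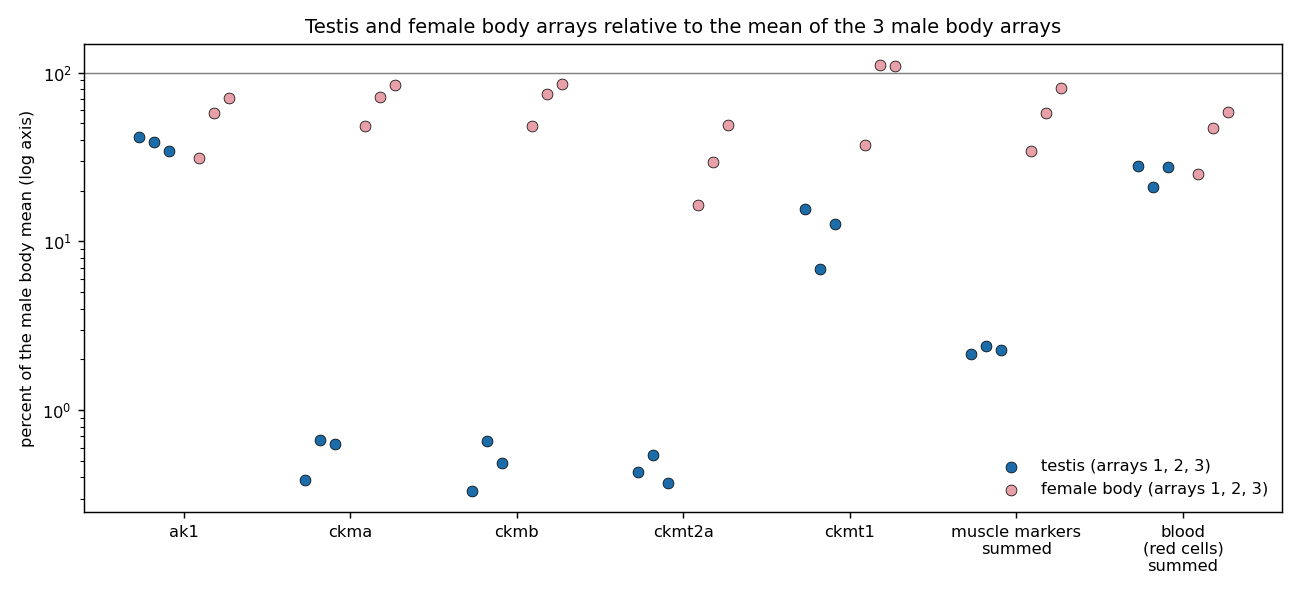
Signals of 3 testis arrays and 3 female body arrays as a percent of the mean of the 3 male body arrays (log axis), for ak1, 4 creatine kinases and the summed muscle and red cell markers, with the line at 100. Testis ak1 sits between 34.5% and 41.6%, whereas testis ckma, ckmb and ckmt2a sit below 1%. In female body ak1, ckma, ckmb and ckmt2a are lowest on array 1 and highest on array 3, as are muscle and red cell sums.

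The mitochondrial adenylate kinase ak4 was both male-enriched, meaning higher in testis than in ovary, and testis-upregulated, meaning higher in testis than in male body. It gave 2497, 2343 and 1653 in testis, 222, 109.8 and 81.6 in ovary, 526, 609 and 386 in male body, and 409.5, 344 and 486 in female body. The 3 testes exceeded all 9 other arrays. The testis signal was 16.9-fold that of ovary (log2 4.08, SE 0.38, adjusted p = 8.5e-05 from limma) and 4.28-fold that of male body (log2 SE 0.23, adjusted p = 0.00019). Ovary was lower than female body (log2 -1.70, SE 0.40, adjusted p = 0.0086), a call lost when arrays were centred on their medians (adjusted p = 0.059). The male and female bodies overlapped (log2 0.28, adjusted p = 0.4).

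The third adenylate kinase, ak3, had its highest mean in male body, and its testis signals overlapped those of female body. Its signals were 265, 199.7 and 207 in testis and 72.6, 34.6 and 92.4 in ovary. They were 499, 636 and 438.5 in male body and 192, 209 and 448 in female body. Testis lay above ovary without overlap (log2 1.85, SE 0.38, adjusted p = 0.0042) and below male body without overlap (log2 -1.22, SE 0.22, adjusted p = 0.0021). Ovary was lower than female body (log2 -2.09, SE 0.49, adjusted p = 0.0084), which quantile normalization brought to log2 -1.30 with an adjusted p of 0.058. The bodies overlapped, since female body array 3 exceeded male body array 3 (log2 0.98, SE 0.36, adjusted p = 0.07), and without that female array the difference passed (log2 1.37, adjusted p = 0.01). The mitochondrial pair ak3 and ak4 therefore moved in opposite directions between testis and male body.

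The muscle-type creatine kinases ckma and ckmb were body genes. The ckma probe set gave 109.6, 188 and 178.5 in testis, 87.6, 62.9 and 92.5 in ovary, 29986, 27638 and 27624 in male body, and 13773, 20494 and 24047 in female body. Testis was 184-fold lower than male body (log2 -7.52, SE 0.22, adjusted p = 5.5e-07) and ovary 237-fold lower than female body (log2 -7.89, SE 0.26, adjusted p = 1.8e-06). The ckmb probe set gave 109.8, 215 and 161 in testis, 17.5, 11.2 and 55.9 in ovary, 35699.5, 32097 and 30817 in male body, and 15774, 24441 and 28095 in female body. It was 210.2-fold lower in testis than in male body (log2 -7.72, SE 0.24, adjusted p = 6.9e-07). Its log2 difference in ovary against female body, -9.17 (SE 0.31, adjusted p = 1.8e-06), depends on the floor because 2 ovary arrays lay below it. Both genes had a Pearson correlation of 1.00 with each other over the 12 arrays. Whether their probes tell the paralogs apart was not examined.

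The gonads themselves differed in these low signals. Testis was higher than ovary for ckmb (log2 2.02, SE 0.33, adjusted p = 0.0014). For ckma the difference of log2 0.95 (SE 0.29, adjusted p = 0.023) was lost without ovary array 2 (log2 0.78, adjusted p = 0.072), testis array 2 (log2 0.81, adjusted p = 0.074) or testis array 3 (log2 0.85, adjusted p = 0.073), and its direction turned under quantile normalization (log2 -0.09, adjusted p = 0.8). Of 21 muscle markers 15 were higher in testis than in ovary, 1 lower and 5 not called, beside 42.5% higher and 24.4% lower over all probe sets. Several of the 15, such as mylz3, myl1 and tnnt3b, had all 3 ovary arrays at the floor. The muscle sum was 5047 to 5576 in testis and 7811 to 8882 in ovary. Within it eno3, the 1 marker called lower, had means of 2542 in testis and 7694 in ovary. The median marker stood at 1.2% to 1.8% of the male body mean in testis and 0.25% to 0.67% in ovary. The part of muscle RNA in the gonad signals of ckma and ckmb was not tested.

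The sarcomeric mitochondrial creatine kinase ckmt2a shared the body pattern, and its correlation with ckma over the 12 arrays was 0.99. It gave 59.3, 74.9 and 51.2 in testis, and 19.3, 7.0 and 5.9 in ovary, all below the floor. It gave 16328.5, 9138 and 16100.5 in male body and 2267, 4095 and 6824 in female body. Testis was 219-fold lower than male body (log2 -7.78, SE 0.27, adjusted p = 9.5e-07) and ovary at least 125-fold lower than female body (log2 -6.96, SE 0.39, adjusted p = 1.6e-05). Testis was at least 1.91-fold above ovary (log2 0.93, SE 0.16, adjusted p = 0.0016), a call lost with a floor of 64 (log2 0.08, adjusted p = 0.46) or quantile normalization (log2 0.24, adjusted p = 0.21). With every ovary array set to the floor, ckmt2a could only come out lower in ovary. The main p-values of both comparisons with ovary hold no spread between ovaries.

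Of the 10 probe sets, ckmt2a was the one called between male and female body. The 3 male bodies lay above the 3 female bodies, by 3.36-fold (log2 1.75, SE 0.42, adjusted p = 0.022). The call was lost without female body array 2 (log2 1.77, adjusted p = 0.058), male body array 1 (log2 1.61, adjusted p = 0.071) or male body array 3 (log2 1.62, adjusted p = 0.074). Markers of several tissues were also called higher in male body. All 3 heart markers measured (myl7, cmlc1 and tnnt2a) were, with summed signals between 8775 and 12576 in the male and between 489 and 3619.9 in the female bodies. Of 21 muscle markers 5 were called higher, none lower and 16 not called, beside 18% higher over all probe sets. Muscle sums lay between 194840 and 265860 in the male and between 80247 and 189260 in the female bodies. Of 18 brain and nerve markers 9 were called higher and none lower. The share of heart and muscle RNA in the ckmt2a difference was not tested.

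The ubiquitous mitochondrial form ckmt1 was intermediate in testis. Its signals were 340.1, 150.2 and 279.9 in testis, and 4.7, 4.6 and 6.3 in ovary, all below the floor. They were 1887, 2961 and 1736 in male body, and 813, 2425 and 2390.5 in female body. Testis was at least 7.58-fold above ovary (log2 2.92, SE 0.32, adjusted p = 0.00018) and 8.79-fold below male body (log2 -3.14, SE 0.34, adjusted p = 0.00018), with no overlap in either case. Ovary was at least 52.4-fold lower than female body (log2 -5.71, SE 0.44, adjusted p = 7.7e-05). With every ovary array set to the floor, ckmt1 entered both comparisons with ovary through the other group alone. It could only come out lower in ovary, and these p-values hold no spread between ovaries. Female body array 1 was low and the other 2 were within the male range, so the bodies overlapped (log2 0.35, SE 0.44, adjusted p = 0.56), and without female body array 1 the difference was log2 -0.18 (adjusted p = 0.64).

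The brain-type paralogs ckba and ckbb ran in opposite directions between the gonads. The brighter of the ckba probe sets gave 13428, 15348 and 13747 in testis, 1000.4, 598 and 2470.1 in ovary, 3446.5, 1905 and 3324 in male body, and 958, 1435 and 2422 in female body. Every testis array exceeded every other array. Testis was 12.4-fold above ovary (log2 3.63, SE 0.47, adjusted p = 0.0004) and 5.06-fold above male body (log2 2.34, SE 0.23, adjusted p = 0.00011). By this probe set ckba was male-enriched and testis-upregulated like ak4, whereas the dimmer probe set was not called in testis against male body. Ovary and female body overlapped (log2 -0.39, SE 0.54, adjusted p = 0.55), and that small difference took the other sign with median centring (log2 0.31) or without ovary array 2 (log2 0.07). Male and female bodies overlapped as well (log2 0.90, SE 0.37, adjusted p = 0.098), and without female body array 3 the difference passed the threshold (log2 1.25, adjusted p = 0.025).

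The dimmer ckba probe set was erratic within groups. It read 1451, 3347 and 181 in testis, 93.6, 37.8 and 27.3 in ovary, 1001, 807 and 114 in male body, and 230.3, 400.3 and 70.9 in female body. The highest array was 18.5 times the lowest in testis and 8.81 times in male body. Testis was above ovary without overlap (log2 4.31, SE 1.04, adjusted p = 0.0083, with 1 ovary array at the floor), a call the methods' t-test did not make (adjusted p = 0.19). Testis and male body overlapped (log2 1.09, SE 1.18, adjusted p = 0.46), whereas with the replicate number as a block, which pairs each testis with its numbered body, the same difference passed (adjusted p = 0.017). Ovary against female body was called (log2 -1.95, SE 0.68, adjusted p = 0.041) although the groups overlapped. That call was lost without female body array 1 (log2 -1.80, adjusted p = 0.13), female body array 2 (log2 -1.40, adjusted p = 0.13), ovary array 2 (log2 -1.77, adjusted p = 0.11) or ovary array 3 (log2 -1.65, adjusted p = 0.12). The 2 ckba probe sets had a correlation of 0.59 over the 12 arrays. They disagreed on the call in testis against male body and in ovary against female body.

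In contrast, ckbb was lowest in testis and tight within groups. It gave 1248.5, 1228 and 1101 in testis, 9898, 8991 and 10181 in ovary, 6960.0, 6514 and 6137 in male body, and 7598, 8499 and 7275 in female body. All 4 groups were separated from one another. Testis was 8.13-fold below ovary (log2 -3.02, SE 0.10, adjusted p = 1.6e-06) and 5.48-fold below male body (log2 -2.46, SE 0.12, adjusted p = 4.4e-06). Ovary lay above female body by log2 0.32 (SE 0.16, adjusted p = 0.13), which passed the threshold with quantile normalization (log2 0.71, adjusted p = 0.0085), median centring (log2 1.02, adjusted p = 0.0027) and a single fit of all 12 arrays (log2 0.32, adjusted p = 0.045). The male body was below the female body by a small margin (log2 -0.25, SE 0.18, adjusted p = 0.31). The female body arrays, which held 45.6% to 83.2% of the ovary's summed oocyte signal, lay between the ovary and male body arrays for ckbb. From array 1 to 3 that oocyte share fell (83.2%, 58.6% and 45.6%), whereas ckbb was highest on array 2. The part of oocyte RNA in the position of ckbb was not tested.

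**Figure D3:**
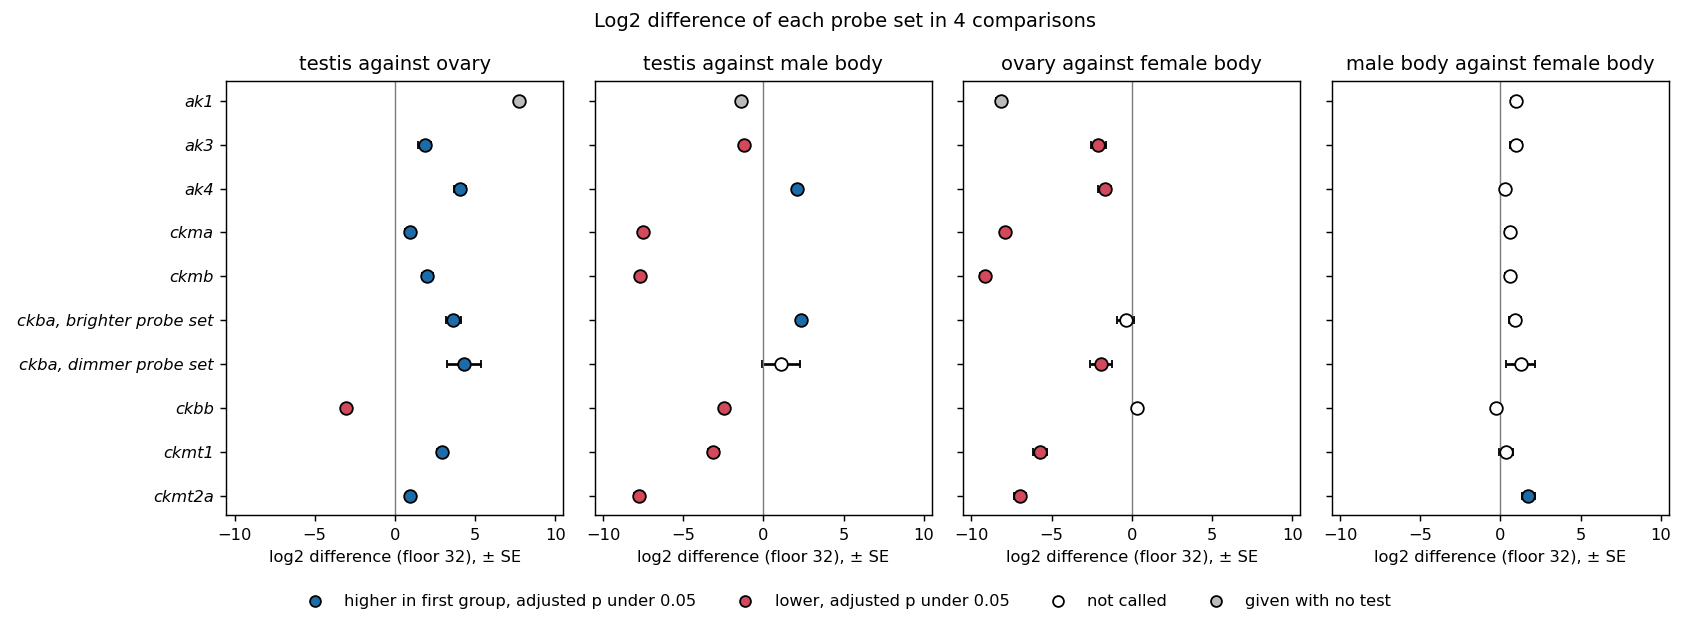
Log2 differences of the 10 probe sets (points, with bars of 1 SE) in testis against ovary, testis against male body, ovary against female body and male body against female body, filled by the limma call and grey for ak1 where no test was made. In testis against ovary ckbb is the only point left of 0 (the ckma point crosses to -0.09 under quantile normalization), and in testis against male body ak4 and the brighter ckba are the called points right of 0.

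Counted together, 8 of the 9 probe sets tested were higher in testis than in ovary and 1 (ckbb) was lower. Over all probe sets tested the corresponding shares were 42.5% and 24.4%. The ckma call within the 8 reverses its sign under quantile normalization, and ckmt1 and ckmt2a entered through testis alone, with ovary at the floor. The groups did not overlap for any of the 9 probe sets, a separation that 76.3% of all probe sets tested showed. The median log2 difference of these 9, without ak1, was 2.02, beside 0.36 over all probe sets tested.

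In testis against male body 2 of 9 were higher (ak4 and the brighter ckba), 6 were lower and 1 was not called, against a background of 29.2% higher and 29.9% lower. The groups did not overlap for 8 of these 9 (66.6% of all probe sets tested), and the median of the 9 was -2.46, beside -0.12 for all probe sets. In ovary against female body 0 of 9 were higher and 7 were lower with limma (background 28.2% and 29.5%), and 2 were not called (the brighter ckba and ckbb). The groups did not overlap for 7 of these 9 (70.9% of all probe sets tested), and the median of the 9 was -2.09, beside -0.05. Of the 7 lower, ckmt1 and ckmt2a passed the filter through female body alone, with ovary at the floor. One probe set, ckbb, was called higher in ovary with quantile normalization, median centring, a single fit of the 12 arrays, array weights and the methods' t-test.

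In male against female body 1 of 10 was higher (ckmt2a), 0 were lower and 9 were not called with limma, where 18% and 12.9% of all probe sets were called higher and lower. The groups did not overlap for 5 of the 10 (ak1, ckma, ckmb and ckmt2a with male body above, ckbb with male body below), and 52% of all probe sets showed such a separation. The M-type differences in the body were log2 0.58 for ckma (SE 0.28, adjusted p = 0.14) and 0.57 for ckmb (SE 0.29, adjusted p = 0.16), set beside 0.94 for the median muscle marker and 0.27 for the median of all probe sets. Relative to the male body mean, female body arrays 1, 2 and 3 reached 48.5%, 72.1% and 84.6% for ckma, 48.0%, 74.4% and 85.5% for ckmb, 31.4%, 57.9% and 70.3% for ak1 and 16.4%, 29.6% and 49.3% for ckmt2a. The array order was that of the muscle markers and the reverse of that of the oocyte markers. This order was not particular to muscle. Red cell sums (25.1%, 47.2% and 58.5%), brain and nerve sums (28.9%, 52.1% and 74.6%) and photoreceptor sums (27.2%, 63.5% and 71.3%) had it too. Heart sums (4.62%, 34.2% and 18.9%) and axoneme sums (33.6%, 30.8% and 38.1%) did not. Without female body array 3, 4 probe sets were called higher in male body, and without female body array 2, male body array 1 or male body array 3 none was.

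Whether the gonad to body difference itself differed between the sexes was tested in a fit of all 12 arrays, as testis minus male body less ovary minus female body. Here 4 of 9 probe sets were higher in the male contrast and 1 lower, where 23.1% and 12.6% of all probe sets were called. The contrast was log2 3.80 for ak4 (SE 0.47, adjusted p = 9.2e-05), 2.73 for the brighter ckba (SE 0.65, adjusted p = 0.0063), 2.58 for ckmt1 (SE 0.59, adjusted p = 0.0053) and 1.45 for ckmb (SE 0.41, adjusted p = 0.017). It was -2.77 for ckbb (SE 0.17, adjusted p = 4.1e-07). The values of ckmb and ckmt1 rest on ovary signals at or near the floor, and with a floor of 64 neither passed (log2 0.72, adjusted p = 0.13 for ckmb and log2 1.58, adjusted p = 0.06 for ckmt1). The ckma contrast was log2 0.37 (SE 0.35, adjusted p = 0.45) and took the other sign under quantile normalization (log2 -0.32). For ckmt2a it was log2 -0.82 (SE 0.50, adjusted p = 0.22), which passed without female body array 3 (log2 -1.20, adjusted p = 0.047) and became 0.97 with no floor. For the dimmer ckba it was log2 3.04 (SE 1.52, adjusted p = 0.14), which passed without testis array 3 (log2 4.24, adjusted p = 0.028) and with the replicate block (adjusted p = 0.0052). For ak1 it was at least log2 6.77, since all ovary arrays lay at the floor, and is given with no test.

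Genes that make, move or use the same phosphate pools were read from fixed lists, with 38 genes measured in all, each by its brightest probe set. Creatine synthesis was represented by gatm and gamt, its first and second enzymes, which are named here after their values were seen. Both were higher in testis than in ovary (by 2.06-fold, adjusted p = 0.023, and 4.28-fold, adjusted p = 0.0058) and lower in testis than in male body (log2 -3.11, adjusted p = 0.00075 and log2 -3.66, adjusted p = 4.9e-05). Both were also lower in ovary than in female body (log2 -2.22, adjusted p = 0.021 and log2 -5.16, adjusted p = 0.00024). Neither was called between the bodies.

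Of 37 such genes tested in testis against ovary, 24 were higher, 9 were lower and 4 were not called, with a median log2 difference of 1.17. These shares stand beside 42.5% higher and 24.4% lower over all probe sets. Within the 24, prkag1, ampd2b and guk1a entered through testis alone, with ovary at the floor, and could only come out higher. The differences highest in testis were those of nme2a and nme5, of the nucleoside diphosphate kinases, which pass phosphate from ATP to other nucleotides. The nme2a signal was 1923 ± 161 (SD, n = 3) in testis and 25.2 ± 14.01 in ovary, where 1 array was at the floor (log2 5.87, SE 0.18). The axonemal family member nme5 had 4446 ± 244 in testis and 104 ± 54.3 in ovary (log2 5.55, SE 0.34). The γ subunit of the AMP-activated protein kinase prkag1, part of the sensor that reads AMP, was at least 25.5-fold higher in testis (818 ± 84.0) than in ovary, where it lay at the floor. Among the lower genes were the purine salvage enzyme hprt1 (log2 -1.96, SE 0.22), the guanine nucleotide synthesis enzyme impdh2 (log2 -1.89, SE 0.13) and the kinase subunit prkaa1 (log2 -1.36, SE 0.21).

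In testis against male body the 38 genes divided into 12 higher, 17 lower and 9 not called, with a median of -0.41. The higher share is close to that of all probe sets (29.2% higher, 29.9% lower). Within the 17 lower, guk1b entered through male body alone, with testis at the floor. The nucleoside diphosphate kinases split. Relative to male body, nme5 was higher in testis (4446 ± 244 in testis, 101 ± 4.07 in male body, log2 5.46, SE 0.14) and so was nme7 (2266 ± 140 in testis, 178 ± 40.2 in male body, log2 3.69, SE 0.19), while nme2b.2 was 82.5-fold lower (456 ± 53.7 in testis, 37759 ± 6215 in male body). The adenosine deaminase family gene ada2a was higher in testis (log2 2.85, SE 0.25). The mitochondrial ADP/ATP carrier slc25a4, known as the striated muscle form in mammals, was 209-fold lower in testis (76.1 ± 12.4 in testis, 15798 ± 857 in male body, log2 -7.71, SE 0.16), and the adenylosuccinate synthase adss1 was 14.6-fold lower. The carrier and porin list had 5 of 6 genes lower in testis and none higher.

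**Figure D4:**
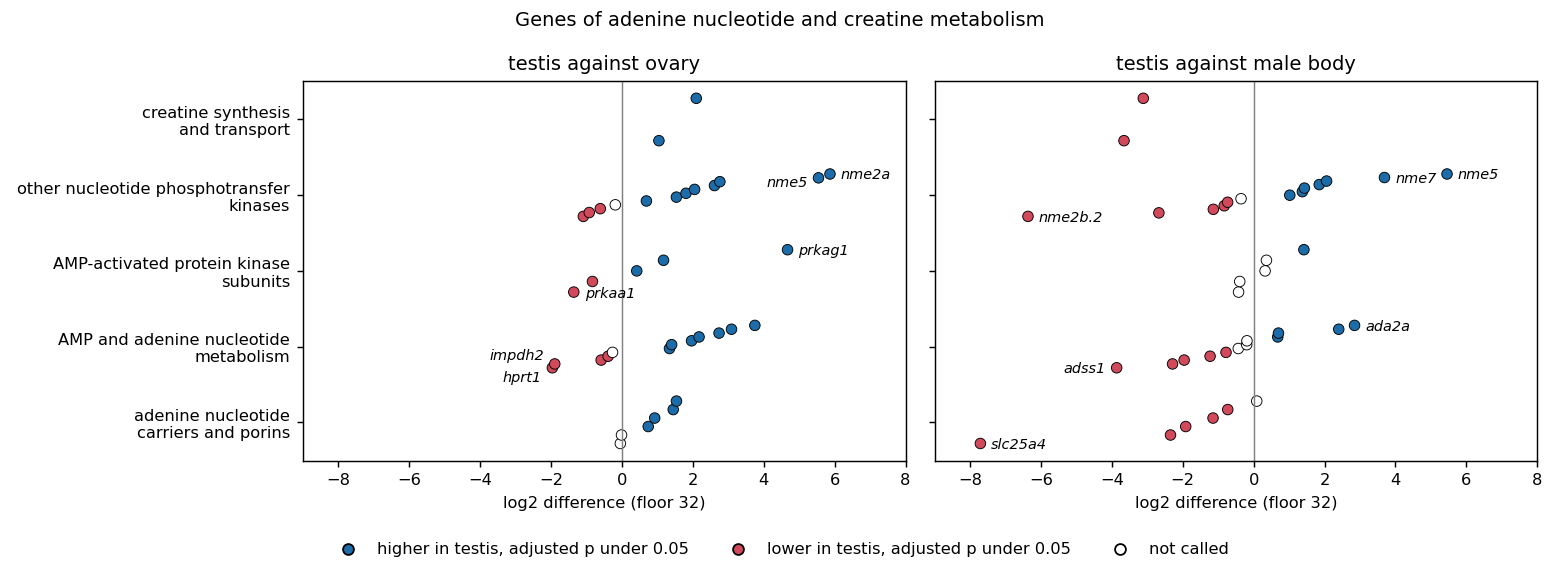
Log2 differences of genes of creatine and adenine nucleotide metabolism in testis against ovary and testis against male body, with 1 point per gene grouped by list, filled by the limma call. The nucleotide kinases spread to both sides in testis against male body, with nme5 at 5.46 and nme2b.2 at -6.37, and the carrier slc25a4 lies at -7.71.

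In ovary against female body 7 of the 38 genes were higher, 18 lower and 13 not called, with a median of -0.70, beside 28.2% higher and 29.5% lower over all probe sets. Within the 18, prkag1, ampd2b and guk1a entered through female body alone, with ovary at the floor, and could only come out lower. Higher in ovary were the salvage gene hprt1l (log2 1.91, SE 0.28), the kinase subunit prkag2a (2.82-fold) and the adenosine kinase adkb (log2 1.40, SE 0.24). The lowest differences were those of slc25a4 (log2 -7.74, SE 0.33, with 1 ovary array at the floor), nme2b.2 (log2 -7.33, SE 0.30) and gamt (log2 -5.16, SE 0.52). In male against female body 7 of 38 were higher, 3 lower and 28 not called, with a median of 0.61, close to the 18% higher and 12.9% lower of all probe sets. The 5′-nucleotidase nt5e, which turns AMP into adenosine at the cell surface, was 4.70-fold higher in male body (1093 ± 277 in male body, 241 ± 89.1 in female body, adjusted p = 0.0049), followed by the guanylate kinase guk1b (log2 1.62, adjusted p = 0.032) and the AMP deaminase ampd3b (log2 1.21, adjusted p = 0.022). The genes lower in male body, impdh2 (log2 -1.01), hprt1 (log2 -0.69) and adssl (log2 -0.62), were lower by 2.01-fold, 1.61-fold and 1.54-fold.

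The genes whose log2 signals ran closest to those of ak1 over the 12 arrays were ca5a (Pearson r = 0.995), aoc2 (0.995), cd63 (0.994), tagln2 (0.993) and the globin hbaa1 (0.992). The carbonic anhydrase ca5a had 2 and the amine oxidase aoc2 1 of the ovary arrays at the floor. The means of hbaa1 were 8554 in testis, 246 in ovary, 27120 in male body and 15480 in female body. Closest to ckbb, the creatine kinase with the highest mean signal on the log2 scale, were the tight junction gene oclnb (0.986), the protease inhibitor spint2 (0.986), arpp21 (0.980), lbh (0.977) and the liver-type glycogen phosphorylase pygl (0.976). The means of oclnb were 23.4 in testis, 274 in ovary, 244 in male body and 246 in female body. Within the family, ckbb ran against the brighter ckba (r = -0.91) and ak4 (r = -0.89), ak1 ran with ckmt1 (0.90) and ak3 (0.90), and ak1 with ckma had 0.72. These correlations describe 12 arrays in 4 groups and carry no test, since arrays of a group share their tissue.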

How the data were processed

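RNA of 12 zebrafish samples was hybridised to 1 Affymetrix array each. The deposited intensities are linear signals computed by the authors in GCOS 1.2, with arrays scaled to a common mean after trimming 2% at each end (500.1 to 500.2 when recomputed). The authors' GC-RMA and other values were not analysed here. After 115 control probe sets were left out of 15617, signals were floored at 32 and log2 transformed. The limma package (3.58.1, R 4.3.3) was run with lmFit and a trended eBayes on the 6 arrays of each comparison, and on all 12 for the contrast of gonad minus body between the sexes. P-values are two-sided with Benjamini-Hochberg adjustment over all probe sets above the floor on at least 1 array compared, and called under 0.05. Folds come from log2 differences, and the steps were tested on simulated data. Tables and plots used Python 3.11.15, NumPy 2.4.6, pandas 2.3.3 and matplotlib 3.10.9. Array number limits the precision.

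The members, gene lists, tests and alternatives were chosen with earlier results of these data known. Every member was named. For ak1 and the creatine kinase with the highest mean, the 5 most correlated single-symbol genes were named, and up to 3 called genes per direction and comparison from the pathway lists (creatine, nucleotide kinases, AMP-activated protein kinase, AMP metabolism, carriers). The marker lists were muscle, heart, brain and nerve, photoreceptor, axoneme and oocyte, and red cells were added later. The ak1 test was withheld in 4 contrasts with gonads, of which 2 were withheld after the plan was set. Symbols of the 9 genes equal those of RefSeq.

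Same-numbered samples deviated together between testis and male body (r of deviations from group means 0.308, 0.307 and 0.295) and between ovary and female body (0.242, 0.285 and 0.29). The labels describe each dissected fish as giving a gonad and a body but do not say that a number marks 1 fish, so the pairing is taken from these correlations, and a replicate block was fitted as an alternative. Alternatives were floors of 16 and 64 or none, quantile normalization, median centring, a mean signal of at least 200, 1 fit of all arrays, no trend, array weights, the block, the methods' t-test and leaving out each array.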

Additional observations from a re-analysis of the deposited data

Results flagged for a closer look

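For 5 probe sets the gonad to body difference differed between males and females by a limma contrast over the 12 arrays (testis minus male body, less ovary minus female body). The contrast was 3.80 for ak4, 2.73 for the brighter ckba probe set, 2.58 for ckmt1 and 1.45 for ckmb on the log2 scale, a higher signed value in males, and -2.77 for ckbb, a lower signed value in males. For ckmt1 the gonad was below the body in both sexes (log2 -3.14 in males and -5.71 in females), as it was for ckmb (-7.72 in males and -9.17 in females), and for ckbb the values were -2.46 in males and 0.32 in females. For ckmt1 all 3 ovary arrays and for ckmb 2 of them were at the floor of 32, so these 2 values depend on it. The median contrast of all probe sets was 0.07 in the main analysis, -0.16 after quantile normalization and -0.39 after median centring.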

How the results depend on the processing

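Another choice of scale moved the median log2 difference of all probe sets from 0.36 to -0.03 (quantile normalization) and -0.15 (median centring) in testis against ovary, and from -0.05 to 0.31 and 0.55 in ovary against female body. Of single-member values, 464 under alternative settings and 342 with 1 array left out kept their direction and side of the threshold (or, with no test, moved by under 1 SD), and 9 and 2 reversed. Calls were lost in 20 and 10 cases and gained in 21 and 5, and untested values moved further in 13 and 1. Reversed were ckma in testis against ovary (-0.09, quantile), the brighter ckba in ovary against female body (0.31 with median centring, -0.95 to 0.07 with 1 array left out, the highest without ovary array 2), the dimmer ckba (-0.18, array weights) and ckmt1 (-0.21 with array weights, -0.18 to 0.61 with 1 array left out, the lowest without female body array 1) in male against female body. In the sex difference, ak3 reversed with quantile normalization (-0.47), ckma with quantile normalization (-0.32) and median centring (-0.42), and ckmt2a with a floor of 16 (0.09) and no floor (0.97). Members higher in testis than in ovary numbered 5 with a mean of at least 200, which tests fewer probe sets. In ovary against female body 1 member was higher under quantile normalization, median centring, 1 fit, array weights and the methods' t-test, and 3 were lower with that test. In male against female body 2 members were higher with a floor of 16, no floor, median centring, a mean of at least 200, 1 fit and the replicate block, 7 with array weights, 0 with the methods' t-test and 0 to 4 with 1 array left out, and 1 was lower with array weights. There the count over all probe sets, 4613, was 8979 with array weights, whose estimate did not converge, 53 with the methods' t-test after Benjamini-Hochberg and 1853 to 5768 with 1 array left out. In the sex difference, a floor of 64 left 2 members higher and 2 lower, and leaving out 1 array left 1 to 2 lower. The causes were not tested. The replicate block changed the call of the dimmer ckba in testis against male body (log2 1.09, adjusted p = 0.017 from limma), in the sex difference (log2 3.04, adjusted p = 0.0052) and in male against female body (log2 1.27, adjusted p = 0.034), where the bodies share only a number (same-number r 0.046, 0.088 and 0.159), and it changed no other member's call. Signals under the floor limit ak1, ckmt1 and ckmt2a in ovary to bounds.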

Other observations

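The dimmer ckba probe set was lowest on array 3 in every group, at 181 in testis, 27.3 in ovary, 114 in male body and 70.9 in female body. The highest array was 18.5, 3.43, 8.81 and 5.65 times the lowest in testis, ovary, male body and female body. The brighter ckba probe set had its lowest array at number 1 in testis, 2 in ovary, 2 in male body and 1 in female body.

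Brain and nerve markers, given for the brain-type creatine kinases, summed to 26.1% to 42.4% of the male body mean in testis, 3.74% to 4.79% in ovary and 28.9% to 74.6% in female body. In testis against male body 13 of 18 were lower, 1 was higher and 4 were not called, and in male against female body 9 were higher and 9 were not called. Over all probe sets 29.9% were lower and 29.2% higher in testis against male body. The shares in male against female body were 18% higher and 12.9% lower. Photoreceptor markers summed to between 3438 and 3873 in testis and 290.1 and 346 in ovary, and to between 12508 and 16252 in the male and 3741 and 9819.5 in the female bodies. In testis opn1sw2 alone had a mean of 2987, and the median photoreceptor gene stood at 3.8% to 5.0% of the male body mean. Against male body 8 of the 9 photoreceptor genes were lower in testis and 1 was not called, beside the 29.9% lower of all probe sets. The axoneme list had 19 of 22 genes higher in testis than in male body (29.2% of all probe sets), 1 lower and 2 not called. Several of the 19, such as dnai1.1 and dydc2, had all 3 male body arrays at the floor. The summed axoneme signal in male body ranged from 2382 to 9521. Within that sum, of mean 6903, ift57 had a mean of 4742 and an SD of 4095. The median axoneme gene stood at 100% to 111.5% of the male body mean on the male body arrays.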
